A study of Saccharomyces cerevisiae with 16 samples.

Results

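The genes described here encode factors that build the ribosome in the nucleolus and nucleus of Saccharomyces cerevisiae. They were chosen by symbol: every gene whose symbol is UTP, NOP, RRP, NOC, NSA, IMP, MPP or RIX followed by a digit was taken, apart from IMP1 and IMP2, which encode peptidases of mitochondria. The rule found 64 genes, each with a single probe set, among 5449 genes with a symbol on the array. Nothing in the rule used an expression value, and no filter on low values was applied, so all 64 were measured and tested in every comparison.

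As background, ribosomal RNA is transcribed as a long precursor that is modified by small nucleolar ribonucleoprotein particles (snoRNPs), folded, cut and trimmed while ribosomal proteins join it. The small subunit forms inside a large early particle, the small subunit processome, which carries the U3 snoRNP and the UTP proteins, named for their link with U3. The large subunit forms through a series of precursor particles that hold most NOP, NOC, NSA and RIX proteins, and the exosome trims the RNA. In yeast these genes are known as a regulon that follows growth rate and nutrient supply, with regulators such as Sfp1, Sch9, Dot6, Tod6 and Stb3.

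The arrays measured total RNA from steady-state chemostats, in which the supply of a single nutrient limits growth. The growth rates of the groups are not given here. A mutant strain (SCE088) and a reference strain (SCE090) were grown on ethanol or on glucose, with either the nitrogen source or that carbon source limiting, which gives 8 groups. Each group holds 2 arrays. The labels do not name the mutated gene, and they give no time point or batch. The paper that cites these data instead describes a time course in which cells pass out of glucose starvation into nitrogen starvation, and the labels were followed here. Nor do they say that both arrays of a group are from cultures of their own. Each p-value therefore rests on array-to-array spread alone, and that spread may be technical.

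Values are given as log2 of the deposited intensity, on which a difference of 1 is a doubling. An intensity compares the same gene between arrays and not one gene with another. The intensities had been normalized across arrays, so a change in total RNA per cell would not be visible in them. The median of all probe sets lay between 11.91 and 12.01 on the 16 arrays. The 2 arrays of a group correlated across probe sets with r of 0.984 to 0.997, and a factor differed between them by a median of 0.05 to 0.13 on the log2 scale, depending on the group. The reference groups had the wider spread, at 0.10 to 0.13 for these factors, against 0.05 to 0.09 in the mutant groups. The 8 group means were fitted to all 16 arrays with limma, which gave each difference with its standard error (SE), and a gene was called where its Benjamini-Hochberg adjusted p over all 5716 probe sets was under 0.05. Replicate numbers in the titles and descriptions disagree for the 2 glucose-limited reference arrays. By the description numbers, same-numbered reference arrays deviated together over all probe sets in every pair of reference groups (r of 0.35 to 0.68), so counts that moved by over 1.5 times with those numbers as a block in the reference strain are given beside the results as counts with the reference arrays paired, a fit chosen after seeing the data. All calls of the fit without the block were kept in it, in each of the 16 comparisons. The block changes no log2 difference, only its SE and p-value, so the kept calls are no further support. In comparisons within the mutant the block pairs no array, and counts move only through the SD that a gene shares over all groups. Fits that leave out an array keep 1 array in its group, so their calls can fall through lower power. Calls over all probe sets in those fits are not given here.

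The 64 factors fall into 8 classes by known role. The UtpA complex, which binds the start of the precursor, holds UTP4, UTP5, UTP8, UTP9, UTP10 and UTP15, and the UtpB complex holds UTP6, UTP13, UTP18 and UTP21. UTP22, RRP7 and RRP36 were taken as the UtpC complex, and MPP10, IMP3 and IMP4 form the Mpp10 complex. Another 16 genes act mainly on the small subunit: UTP7, UTP11, UTP14, UTP20, UTP23, UTP25, UTP30, NOP6, NOP9, NOP14, NOP19, NOC4, RRP3, RRP5, RRP9 and RRP12. The snoRNP proteins are NOP1, NOP56 and NOP58 of the methylation guide particles and NOP10 of the pseudouridylation guide particles. Factors of the large subunit number 20 and include NOP2, NOP4, NOP7, NOP8, NOP12, NOP13, NOP15, NOP16, NOP53, NOC2, NOC3, NSA1, NSA2, RIX1, RIX7, RRP1, RRP8, RRP14, RRP15 and RRP17. Subunits and cofactors of the nuclear exosome are RRP4, RRP6, RRP40, RRP42, RRP43, RRP45, RRP46 and MPP6.

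Across the 8 groups the factors shared a profile with a clear top and bottom. The median factor stood at 11.91 in ethanol-limited mutant cells and at 11.53 in reference cells limited for nitrogen on glucose, and the other 6 groups lay between 11.59 and 11.73. Over all probe sets the median was 11.98 in that top group and 11.96 in that bottom group. Of the 64 factors, 38 had their highest group mean in ethanol-limited mutant cells and 12 in glucose-limited reference cells. The lowest group mean fell in reference cells limited for nitrogen on glucose for 28 factors and in ethanol-limited reference cells for 13. Highest and lowest groups were not counted over all probe sets. Changes were small: the 8 group means of a factor spanned 0.17 to 1.34, with a median of 0.52. The pooled SD of a factor was taken over all groups and drawn by limma towards a value common to all probe sets. Its median was 0.08, and the highest was 0.25, for UTP25. At least 1 of the 12 pairwise comparisons was called for 55 factors and none for 9, with a maximum of 8 for NOP58. This tally was not made over all probe sets. A single comparison called up to 25.2% of them in 1 direction, so most genes may have a call.

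**Figure D1:**
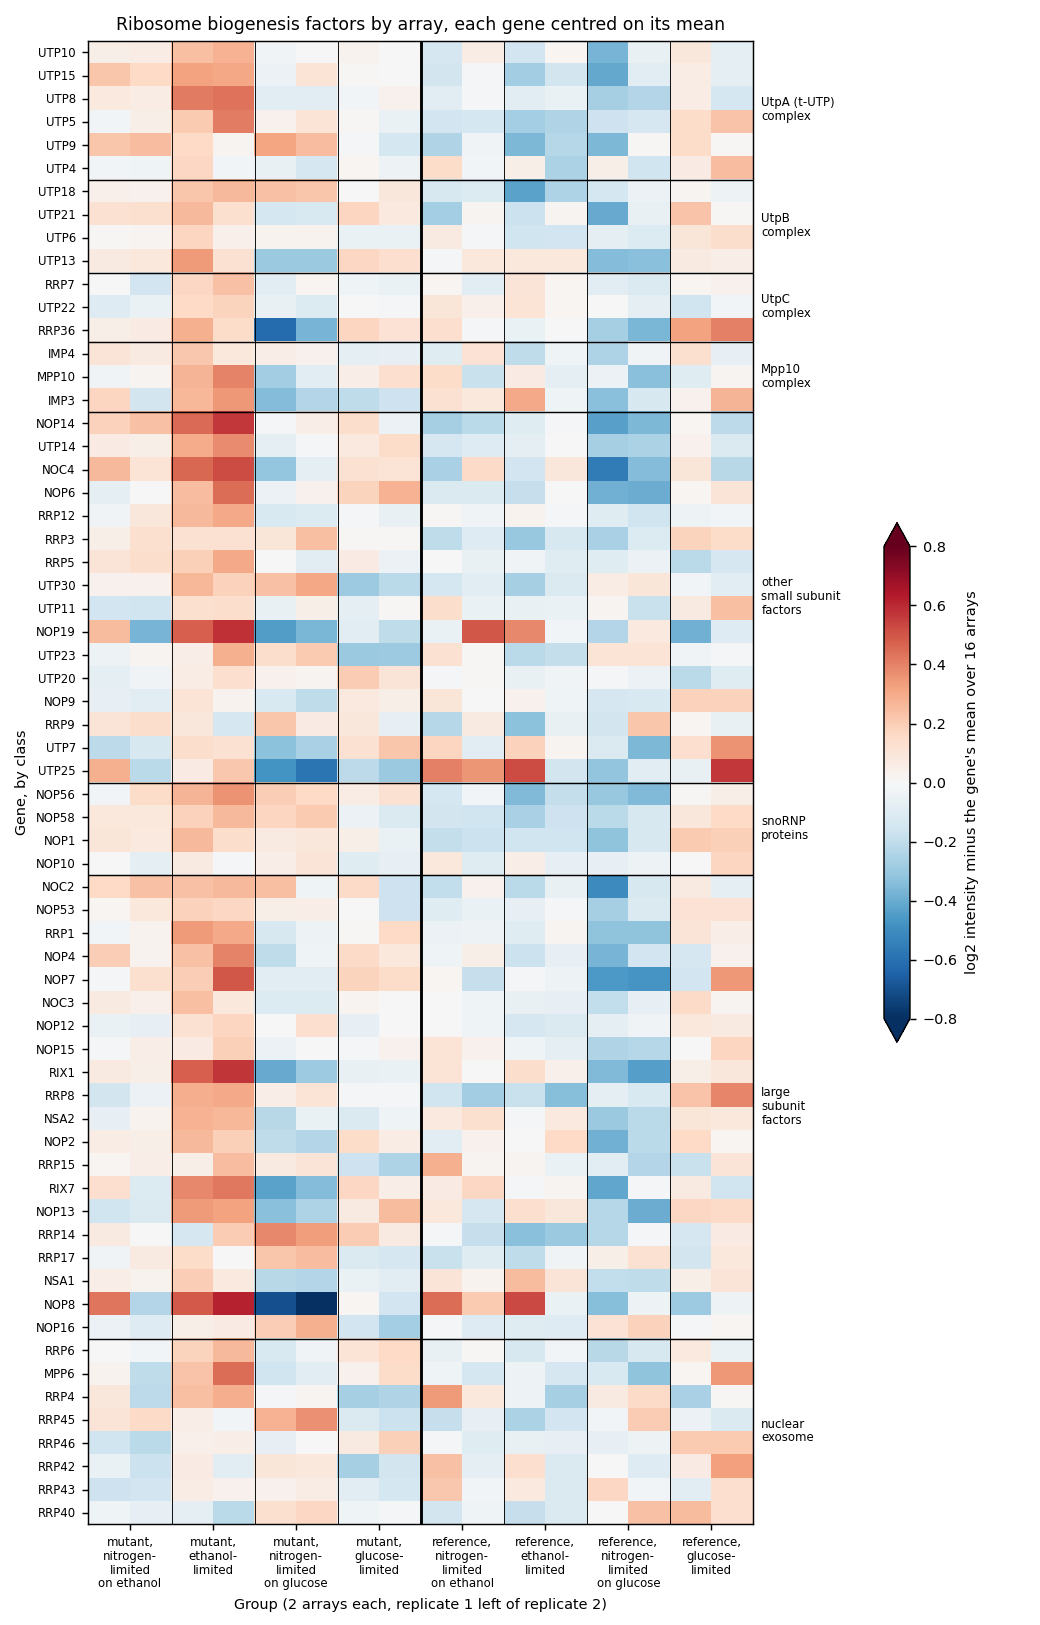
Log2 intensity of the 64 factors (rows, by class) on the 16 arrays (columns, 2 for each group, mutant groups left of reference groups), each gene centred on its mean over all arrays. Most rows are red in the ethanol-limited mutant columns, where 38 factors had their highest group mean, and blue in the reference columns limited for nitrogen on glucose, where 28 had their lowest. The same counts were not made over all probe sets.

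The widest strain difference was found under ethanol limitation. There, 31 of the 64 factors were higher in the mutant and 0 were lower, against 12.2% of all probe sets higher and 12.6% lower. The median difference was 0.27, against 0.02 over all probe sets, and 61 of the 64 factors had a difference above 0. Each class had a median above 0, from 0.14 for UtpC to 0.44 for UtpA. Called as higher were 5 of 6 UtpA genes, 2 of 4 UtpB genes, 9 of the 16 other small subunit factors, 3 of 4 snoRNP genes, 9 of 20 large subunit factors and 3 of 8 exosome genes. None of the 3 UtpC and none of the 3 Mpp10 genes passed, although their 6 differences were all positive and lay between 0.10 and 0.34. Leaving out replicate 1 of the ethanol-limited reference arrays left 20 calls, and with the reference arrays paired 47 factors were higher and 0 lower, against 19.4% and 19.1% of all probe sets.

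NOP56 (YLR197W), a core protein of the methylation guide snoRNPs, shared the largest rise with UTP18, at 12.31 and 12.40 on the mutant arrays, against 11.69 and 11.85 on the reference arrays. Its difference was 0.58 ± 0.07 (SE), which is 1.5-fold, with an adjusted p of 0.000426. UTP18 (YJL069C), of the UtpB complex, which holds the 5′ end of the precursor with U3, read 11.85 and 11.89 in the mutant, against 11.20 and 11.38 in the reference strain, a difference of 0.58 ± 0.06 (adjusted p = 0.000178). Neither gene's arrays overlapped between the strains. Here and below, most named genes were chosen for large called differences, so arrays that do not overlap are no further support.

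UTP5 (YDR398W), a UtpA gene, read 12.17 and 12.37 in ethanol-limited mutant cells, against 11.69 and 11.72 in the reference strain, a rise of 0.57 ± 0.06 (adjusted p = 0.000227). NOP14 (YDL148C), which acts with Noc4 in maturation of the small subunit, measured 11.91 and 12.02 in the mutant, against 11.36 and 11.44 in the reference strain (0.56 ± 0.08, adjusted p = 0.00114). In both genes the 2 mutant arrays were well above the 2 reference arrays. RRP8 (YDR083W), a methyltransferase of the large subunit RNA, stood at 11.49 and 11.50, against 11.02 and 10.86 in the reference strain (0.55 ± 0.07, adjusted p = 0.000512). NOC4 (YPR144C) rose by 0.52 ± 0.15 (adjusted p = 0.0342), with 12.21 and 12.27 in the mutant, against 11.60 and 11.84 in the reference strain. RIX1 (YHR197W), part of a complex that acts on the internal spacer before the large subunit leaves the nucleus, read 11.78 and 11.87, against 11.44 and 11.34 in the reference strain (0.43 ± 0.06, adjusted p = 0.000819). All 3 genes had mutant arrays above both reference arrays.

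Under nitrogen limitation on glucose the mutant was also higher, in fewer genes. There, 15 of the 64 factors were higher and 0 lower, against 9.99% of all probe sets higher and 11.1% lower, with a median difference of 0.11 against 0.00 over all probe sets. NOP56 had the largest rise, with 12.24 and 12.20 in the mutant and 11.74 and 11.69 in the reference strain, a difference of 0.51 ± 0.07 (adjusted p = 0.000736). The snoRNP genes gave 3 calls of 4, for NOP56, NOP58 (YOR310C; 0.36 ± 0.05) and NOP1 (YDL014W; 0.31 ± 0.06), and UtpA gave 2 of 6, for UTP5 and UTP9. NOP1 encodes the methyltransferase of the particles, fibrillarin, and NOP58 another core protein. The exosome, UtpC and Mpp10 classes gave no call. Of the 15 genes, 13 (86.7%) were also called as higher under ethanol limitation, where they make up 41.9% of the 31 calls. For this and the later overlaps between calls, the overlap over all probe sets was not counted. The fit uses 1 SD per gene for all groups, so a gene with a low SD is more readily called in both. The count fell to 6 without replicate 1 of the reference arrays of this condition and to 4 without replicate 2 of the mutant arrays. With the reference arrays paired it was 25 higher and 0 lower, against 16.4% of all probe sets in each direction.

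Glucose-limited cells went the other way. In the mutant, 2 factors were higher and 9 lower, against 9.41% of all probe sets higher and 8.8% lower, with a median of -0.08 against -0.01 over all probe sets. The largest fall was that of RRP8, at 11.19 on both mutant arrays, against 11.43 and 11.59 on the reference arrays (-0.32 ± 0.07, adjusted p = 0.0118). The largest rise was that of UTP20 (YBL004W), a large protein of the small subunit processome, at 12.56 and 12.46, against 12.14 and 12.26 in the reference strain (0.31 ± 0.05, adjusted p = 0.00324). Neither overlapped between the strains. The other falls included UTP23 (-0.27), NOP1, NOP16, NOP58 and UTP5 (each -0.21) and UTP30 (-0.20). Of the 9 genes that were lower, 8 (88.9%) were called as higher in the mutant under ethanol limitation, where they are 25.8% of the calls. This overlap, too, was not counted over all probe sets. With the reference arrays paired, 3 were higher and 18 lower, against 14.8% and 15.7% of all probe sets. The counts were weak, since leaving out an array left 1 call (reference replicate 2 or mutant replicate 2), 4 (mutant replicate 1) or 5 (reference replicate 1), and RRP8 passed in only 1 of those 4 fits, the one without reference replicate 1.

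Under nitrogen limitation on ethanol, the fit without pairing gave the fewest strain calls. NOP14, NOP1 and NOP58 were higher in the mutant and 0 factors were lower, against 5.65% of all probe sets higher and 10.1% lower, and the median was 0.04. NOP14 read 11.64 and 11.69 in the mutant, against 11.19 and 11.24 in the reference strain, a rise of 0.45 ± 0.08 (adjusted p = 0.00457). NOP1 read 13.33 and 13.31, against 13.04 and 13.06 in the reference strain (0.27 ± 0.06, adjusted p = 0.0174). No array of one strain fell among those of the other for either gene. With the reference arrays paired, 11 factors were higher and 4 lower, against 11.6% and 17.6% of all probe sets. The count also moved with scaling, with 11 factors higher after quantile normalization and 9 after median centring. Shares over all probe sets after rescaling are not given here, so those 2 counts cannot be set against them. The count depended on single arrays as well.

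**Figure D2:**
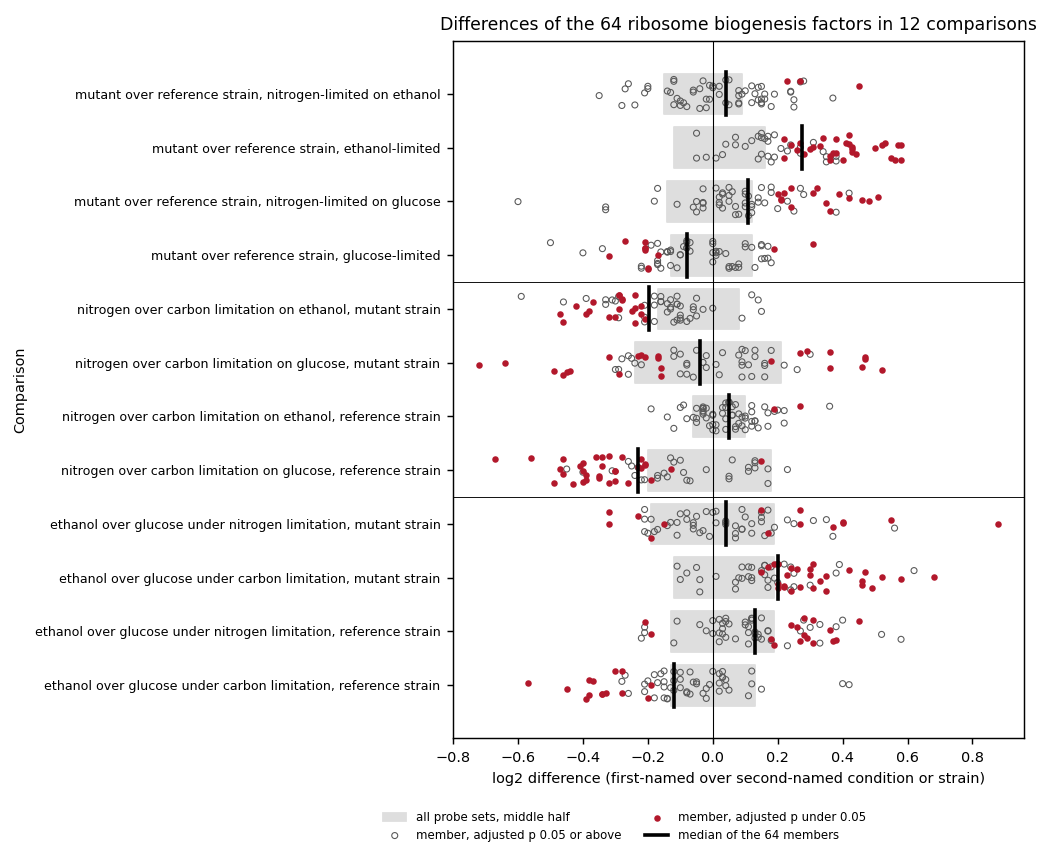
Log2 differences (x axis) of the 64 factors in 12 comparisons (rows), each a point, filled where the adjusted p was under 0.05. The black bar is the median of the factors and the grey band the interquartile range of all probe sets. The median lies at 0.27 for the mutant over the reference strain under ethanol limitation and at -0.23 for reference cells on glucose, nitrogen over carbon limitation.

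Nitrogen limitation was then set against carbon limitation within each strain. On glucose, the mutant gave calls in both directions, with 9 factors higher and 15 lower under nitrogen limitation, against 25.2% of all probe sets higher and 23.6% lower, so the share of lower factors, 23.4%, was close to that of all probe sets. Its median was -0.04. In the reference strain 1 factor was higher and 32 were lower, against 21.4% of all probe sets higher and 22.2% lower. Here 50% of the factors were lower, the median was -0.23 against 0.00 over all probe sets, and 52 of the 64 differences were below 0. In the mutant, the count was 14 in all without replicate 1 of the arrays limited for nitrogen on glucose.

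Every class had a median below 0 in this comparison in the reference strain, from -0.13 for UtpC and the exosome to -0.33 for the snoRNP genes. The lower calls comprised 2 UtpA, 3 UtpB, 1 UtpC, 1 Mpp10, 7 other small subunit, 3 snoRNP, 12 large subunit and 3 exosome genes. RRP36 (YOR287C), of the small subunit, fell most, to 9.57 and 9.47 under nitrogen limitation, against 10.16 and 10.24 under glucose limitation (-0.67 ± 0.09, 0.627-fold, adjusted p = 0.000108). NOP7 (YGR103W), needed for the large subunit, read 11.21 and 11.20, against 11.52 and 12.02 under glucose limitation (-0.56 ± 0.14, adjusted p = 0.00943). NOP13 (YNL175C), a nucleolar RNA-binding protein, read 11.13 and 10.96, against 11.52 and 11.51 (-0.47 ± 0.08, adjusted p = 0.00103), and RIX1 10.95 and 10.86, against 11.35 and 11.39 (-0.46 ± 0.06, adjusted p = 0.000112). NOP1 read 12.91 and 13.10, against 13.44 and 13.42 under glucose limitation (-0.43 ± 0.06, adjusted p = 0.000337). In these 5 genes both arrays under nitrogen limitation lay below both under glucose limitation, which adds no support since they were picked among the called falls.

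The only factor called as higher was NOP16 (YER002W), a constituent of large subunit precursors, with 11.49 and 11.56 under nitrogen limitation and 11.36 and 11.39 under glucose limitation. Its difference of 0.15 ± 0.06 (adjusted p = 0.0457) sat at the threshold, and the call was lost with median centring and without any 1 of the 4 arrays, with differences of 0.12 to 0.19 when an array was left out.

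In the mutant, 13 genes of the 15 called as lower on glucose (86.7%) were also among the 32 called in the reference strain (40.6% of those), among them RRP36, NOP13, UTP13, NOP2, RIX1 and UTP7. No such overlap was counted over all probe sets. RRP36 read 9.22 and 9.46 in the mutant under nitrogen limitation, against 10.01 and 9.95 under glucose limitation (-0.64 ± 0.09, adjusted p = 0.000128). NOP13 read 11.02 and 11.11, against 11.43 and 11.61 (-0.45 ± 0.08, adjusted p = 0.00116). Neither overlapped. NOP8 (YOL144W), a large subunit factor, had the largest fall, to 10.24 and 10.07, against 10.96 and 10.79 under glucose limitation (-0.72 ± 0.23, adjusted p = 0.0263), but its call was lost after quantile normalization (-0.58) and without any 1 of these 4 arrays (-0.80 to -0.64).

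Of the 9 factors that were higher in the mutant under nitrogen limitation on glucose, 3 have a part in large subunit assembly (NOP16, RRP15 and RRP17), and the others were UTP9, UTP18, UTP23, UTP30, NOP58 and the exosome subunit RRP45. UTP30 (YKR060W), a processome protein, rose most, with 11.28 and 11.35 under nitrogen limitation, against 10.75 and 10.83 under glucose limitation (0.52 ± 0.06, adjusted p = 3.18e-05). UTP23 (YOR004W), which takes part in release of the snR30 RNA, read 12.13 and 12.20, against 11.69 and 11.70 (0.47 ± 0.07, adjusted p = 0.000252). NOP16 read 11.57 and 11.66, against 11.22 and 11.10 (0.46 ± 0.06, adjusted p = 6.17e-05). These 3 genes had all arrays under nitrogen limitation above those under glucose limitation.

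An interaction term asked whether the strains differed in their nitrogen over carbon difference on glucose. It was more positive in the mutant for 16 factors and more negative for 1, against 10.2% and 10.5% of all probe sets, with a median of 0.21 against 0.01. The snoRNP genes gave 3 of the calls. NOP58 differed by 0.57 ± 0.07 (adjusted p = 0.000319), with 13.23 and 13.27 under nitrogen and 13.01 and 12.94 under glucose limitation in the mutant, against 12.84 and 12.93 under nitrogen and 13.15 and 13.22 under glucose limitation in the reference strain. Thus NOP58 was higher under nitrogen limitation in the mutant and lower in the reference strain. UTP9 (YHR196W; 0.62 ± 0.17, adjusted p = 0.0261), RRP3 (YHR065C; 0.52 ± 0.10, adjusted p = 0.00651), an RNA helicase of the small subunit, and NOP1 (0.51 ± 0.09, adjusted p = 0.0028) moved in the same direction. UTP20 was the exception, at -0.26 ± 0.07 (adjusted p = 0.0328). With the reference arrays paired, 25 were positive and 1 negative, against 16.5% and 15% of all probe sets. Counts of 9 to 11 were left without reference replicate 1 (10 calls) or mutant replicate 2 (9) under nitrogen limitation, or without either glucose-limited mutant array (11 each).

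On ethanol the same contrast of limitations differed from that on glucose. In the mutant, 0 factors were higher and 20 were lower under nitrogen limitation, against 6.53% of all probe sets higher and 7.79% lower. The median was -0.19 against -0.03 over all probe sets, and 59 of 64 differences were below 0. Reference cells had 2 factors higher and 0 lower, against 4.62% of all probe sets higher and 3.59% lower, with a median of 0.05. In the mutant, the calls took in 6 large subunit, 5 other small subunit, 3 exosome and 2 each of the UtpA and UtpC genes. Without ethanol-limited mutant replicate 2, 6 calls were left, and 9 without either mutant array limited for nitrogen on ethanol. The fit with the reference arrays paired gave 31 lower in the mutant, against 14.9% of all probe sets, and 5 higher in the reference strain, against 7.68%. No mutant array is paired in it, so the mutant count moved only through the SD shared over all groups.

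NOP13 fell most in the mutant, with 11.20 and 11.24 under nitrogen limitation, against 11.70 and 11.68 under ethanol limitation (-0.47 ± 0.08, adjusted p = 0.00507). RIX1 read 11.37 and 11.35, against 11.78 and 11.87 under ethanol limitation (-0.46 ± 0.06, adjusted p = 0.000795), and RRP8 11.05 and 11.15, against 11.49 and 11.50 (-0.39 ± 0.07, adjusted p = 0.00552). In all 3 the arrays under ethanol limitation were the higher ones. Of the 20 genes, 16 (80%) were among the 32 that were lower in the reference strain on glucose (50% of those), an overlap not counted over all probe sets.

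In the reference strain on ethanol, UTP23 (0.27 ± 0.07, adjusted p = 0.0392) and UTP6 (0.19 ± 0.05, adjusted p = 0.0393) were the 2 genes called. UTP23 read 12.11 and 12 under nitrogen limitation, against 11.77 and 11.80 under ethanol limitation, with no overlap. The calls numbered 0 without ethanol-limited replicate 1 or either array limited for nitrogen, and 1 without ethanol-limited replicate 2. On ethanol the strain interaction was negative for 11 factors and positive for 0, against 3.88% and 2.34% of all probe sets, with a median of -0.25 against -0.04. RIX1 differed by -0.43 ± 0.08 (adjusted p = 0.0152), UTP18 by -0.43 ± 0.08 (adjusted p = 0.0173) and UTP23 by -0.44 ± 0.10 (adjusted p = 0.026). RRP4 (YHR069C), a subunit of the exosome cap, had the largest value, -0.68 ± 0.18, at an adjusted p of 0.0496. With the reference arrays paired, 23 were negative and 0 positive, against 9.08% and 5.48% of all probe sets. The calls depended on single arrays: the count was 3, 2, 1 and 6 without ethanol-limited reference replicates 1 and 2 and reference replicates 1 and 2 limited for nitrogen on ethanol, 1 without ethanol-limited mutant replicate 2, and 3 and 1 without mutant replicates 1 and 2 limited for nitrogen on ethanol.

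**Figure D3:**
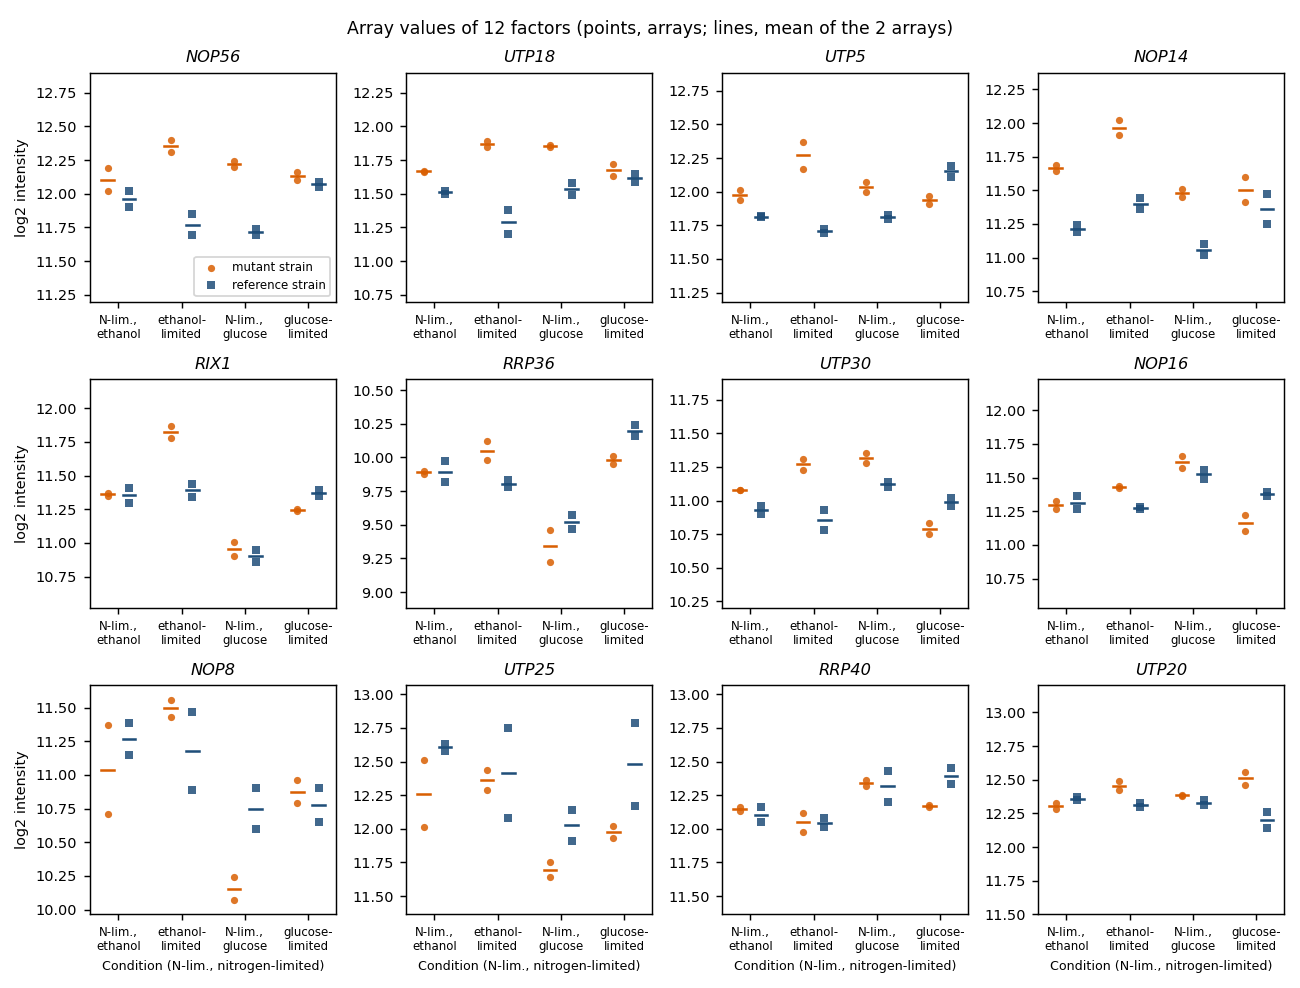
Log2 intensity (y axis, the same span in each panel) of 12 factors on each array, by condition, with mutant arrays as orange circles and reference arrays as blue squares and lines at the mean of 2 arrays. NOP56, UTP18, UTP5, NOP14 and RIX1 show the gap between the strains under ethanol limitation, RRP36 the low level under nitrogen limitation on glucose in both strains, and NOP8 and UTP25 the wide spread between arrays.

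Whether the effect of limitation differed between the carbon sources was tested within each strain. In the mutant the difference between nitrogen and carbon limitation was more negative on ethanol than on glucose for 15 factors and more positive for 2, against 17.8% and 16% of all probe sets, and the median was -0.17 against -0.05. In the reference strain it was more positive on ethanol for 19 factors and more negative for 0, against 14% and 10.5% of all probe sets, with a median of 0.30 against 0.02. RRP36 was positive in both strains, at 0.48 ± 0.12 (adjusted p = 0.011) in the mutant and 0.77 ± 0.12 (adjusted p = 0.00107) in the reference strain. UTP30 (-0.71 ± 0.08, adjusted p = 8.39e-05), UTP23 (-0.64 ± 0.10, adjusted p = 0.000562) and NOP16 (-0.59 ± 0.08, adjusted p = 0.000225) led the negative calls in the mutant. NOP56, at -0.34 ± 0.10 (adjusted p = 0.025) in the mutant and 0.54 ± 0.10 (adjusted p = 0.00277) in the reference strain, had opposite signs. In the mutant, 11 calls were left without either glucose-limited array or without replicate 1 limited for nitrogen on ethanol, and 9 without replicate 2 limited for nitrogen on glucose. In the fit with paired reference arrays, the mutant had 27 negative and 2 positive (24.4% and 20.1% of all probe sets), and the reference strain 37 positive and 0 negative (19.1% and 16%). The mutant counts again rest on unpaired arrays and moved only through the shared SD.

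Ethanol was also compared directly with glucose. These comparisons use the same arrays as those above, so they are no separate evidence. Under carbon limitation, the mutant had 28 factors higher on ethanol and 0 lower, against 16.2% of all probe sets higher and 15.7% lower, with a median of 0.20 against 0.03. The reference strain had 0 higher and 14 lower, against 11.3% higher and 13% lower, with a median of -0.12. In the mutant, each class gave at least 1 call, led by the 9 large subunit and 7 other small subunit factors. RIX1 rose there by 0.58 ± 0.06 (adjusted p = 5.09e-05), with 11.78 and 11.87 on ethanol, against 11.24 and 11.25 on glucose. NOP19 (YGR251W), a protein of the early small subunit particle, rose most, with 11.81 and 11.92, against 11.25 and 11.13 (0.68 ± 0.23, adjusted p = 0.0486), and its call was lost with median centring (0.63) and without any 1 of these arrays (0.62 to 0.74). The count of 28 was 13 and 16 without glucose-limited mutant replicates 1 and 2, and 18 without either ethanol-limited mutant array.

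Among carbon-limited reference cells, RRP8 fell most, with 11.02 and 10.86 on ethanol, against 11.43 and 11.59 on glucose (-0.57 ± 0.07, adjusted p = 0.000267). UTP5 read 11.69 and 11.72, against 12.11 and 12.19 (-0.45 ± 0.06, adjusted p = 0.000487), and NOP1 read 13.07 on both arrays, against 13.44 and 13.42 (-0.37 ± 0.06, adjusted p = 0.00212). All ethanol arrays of these genes lay below the glucose arrays. The snoRNP genes gave 3 calls of 4, UtpA 2 of 6 and UtpB 2 of 4, and the Mpp10 complex none. Pairing the reference arrays gave 1 factor higher and 21 lower, against 16.8% and 18.7% of all probe sets.

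Under nitrogen limitation the mutant had 9 factors higher on ethanol and 5 lower, against 19.5% of all probe sets higher and 23% lower, a median of 0.04. The reference strain had 14 higher and 2 lower, against 17.7% higher and 15.9% lower, with a median of 0.13, and 8 of the higher genes were large subunit factors. The shares of higher factors, 14.1% in the mutant and 21.9% in the reference strain, were not far from those of all probe sets. Pairing the reference arrays gave 16 higher and 12 lower in the mutant (24.2% and 29% of all probe sets), and 26 higher and 4 lower in the reference strain (22.8% and 21.2%). It pairs no mutant array, so the mutant counts moved only through the shared SD. After quantile normalization the split became 9 higher and 8 lower in the mutant and 6 higher and 4 lower in the reference strain, with the shares over all probe sets not given. NOP8 had the largest rise in the mutant, with 11.37 and 10.71 on ethanol, against 10.24 and 10.07 on glucose (0.88 ± 0.23, adjusted p = 0.0116). The ethanol arrays of NOP8 were 0.66 apart, and without replicate 1 of them, or without replicate 2 on glucose, the call was lost, at differences of 0.55 and 0.80.

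RIX1 and RRP36 rose on ethanol in both strains under nitrogen limitation. In the mutant, RRP36 read 9.88 and 9.90 on ethanol, against 9.22 and 9.46 on glucose (0.55 ± 0.09, adjusted p = 0.000481), and in the reference strain 9.97 and 9.82, against 9.57 and 9.47 (0.38 ± 0.09, adjusted p = 0.00645). The rise of RIX1 was 0.40 ± 0.06 in the mutant (adjusted p = 0.000331) and 0.45 ± 0.06 in the reference strain (adjusted p = 0.000223), the largest there. NOP16 and UTP30 were lower on ethanol in both strains, NOP16 by -0.32 ± 0.06 in the mutant and -0.21 ± 0.06 in the reference strain. NOP16 lost its call in the reference strain without replicate 2 of either group, at -0.18 and -0.16. RRP14 (YKL082C), which acts on both subunits, fell as much in the mutant, with 11.30 and 11.22, against 11.61 and 11.56 (-0.32 ± 0.12, adjusted p = 0.0475), but lost its call with a replicate block and without any 1 of these arrays (-0.36 to -0.29). The mutant count of 14 was 6 without replicate 2 on glucose and 7 without replicate 1 on ethanol.

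The likeness of each factor to the rest was described by Pearson's r between its 8 group means and the median of all 64 factors at each group, which includes the factor itself. The groups share arrays with every other gene, so r is given without a test. It ranged from -0.25 to 0.97 with a median of 0.695, was above 0.5 in 40 factors and below 0 in 2. The closest were UTP10 (0.97) and UTP15 (0.95) of UtpA, then UTP8 of UtpA and NOP14 (both 0.93), and NOC2 (0.92). The 5 least like the rest were RRP40 (-0.25), RRP43 (-0.09), RRP42 (0.05), UTP25 (0.07) and NOP16 (0.10).

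Of these 5, RRP40, RRP42 and RRP43 are subunits of the exosome core, which also serves in the turnover of other RNAs. RRP40 (YOL142W) read 12.12 and 11.98 in ethanol-limited mutant cells, against 12.01 and 12.08 in the reference strain, so the strains overlapped. Most factors did not overlap there, but overlap was not counted over all probe sets. With so few arrays in a group, a gene without a difference can also have its arrays apart. The only call of RRP40 was a fall on ethanol under carbon limitation in the reference strain. It read 12.01 and 12.08 on ethanol, against 12.45 and 12.33 on glucose (-0.34 ± 0.08, adjusted p = 0.0104). RRP42 (YDL111C) and RRP43 (YCR035C) were called in no comparison, and their group means spanned 0.40 and 0.26. In the same conditions RRP42 read 12.02 and 11.87 in the mutant, against 12.09 and 11.84 in the reference strain, and RRP43 11.50 and 11.48, against 11.52 and 11.33. Both overlapped between the strains.

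UTP25 (YIL091C), a processome protein, had a wide range of group means, 0.92, without a call, since its arrays disagreed. Its values were 12.75 and 12.08 in ethanol-limited reference cells and 12.17 and 12.79 in glucose-limited reference cells, so the replicates of a group were far apart. NOP8 and NOP19 were as uneven, with 11.47 and 10.89 for NOP8 and 11.72 and 11.31 for NOP19 in ethanol-limited reference cells. The pooled SD of UTP25, NOP8 and NOP19 was 0.25, 0.23 and 0.23, against a median of 0.08 over the factors. The other factors with no call in any pair were UTP4, MPP10, IMP4, RRP9, NOC2 and NOP10, and NOP10 (YHR072W-A) had the narrowest range of group means, 0.17.

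Ribosome biogenesis genes outside the naming rule were counted in lists written from known roles, with no test between lists. Under ethanol limitation, where 12.2% of all probe sets were higher in the mutant and 12.6% lower, 24 of 40 other small subunit factors were higher and 0 lower (60% higher, median 0.26), and 39 of 57 other large subunit factors were higher and 1 lower (68.4% higher, median 0.30). SSF1 (0.70 ± 0.11, adjusted p = 0.00152), a large subunit factor, and LCP5 (0.73 ± 0.11, adjusted p = 0.00106), a small subunit factor, were among the largest rises. Of 15 RNA polymerase I subunits and factors, which make the precursor RNA, 6 were higher and 0 lower (40% higher, median 0.27). Of 127 cytosolic ribosomal protein genes, 12 were higher and 2 lower, with a median of 0.06, and the share that was higher, 9.45%, was below that of all probe sets.

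In reference cells on glucose, nitrogen over carbon limitation gave, in the same lists, 1 higher and 12 lower of the 40 other small subunit factors and 1 higher and 30 lower of the 57 other large subunit factors. The lower share was 30% in the small subunit list (median -0.13) and 52.6% in the large subunit list (median -0.27), against 22.2% of all probe sets lower and 21.4% higher. CBF5, the pseudouridine synthase of the snoRNPs, fell by 0.64 ± 0.13 on the log2 scale (adjusted p = 0.00236), and CGR1 of the large subunit list rose by 0.62 ± 0.07 (adjusted p = 4.97e-05). The polymerase I list had 2 higher and 2 lower of 15. Ribosomal protein genes had 4 higher and 6 lower of 127, with a median of 0.00, against -0.23 for the 64 factors. Many ribosomal protein genes are near-identical pairs that can share signal on an array.

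**Figure D4:**
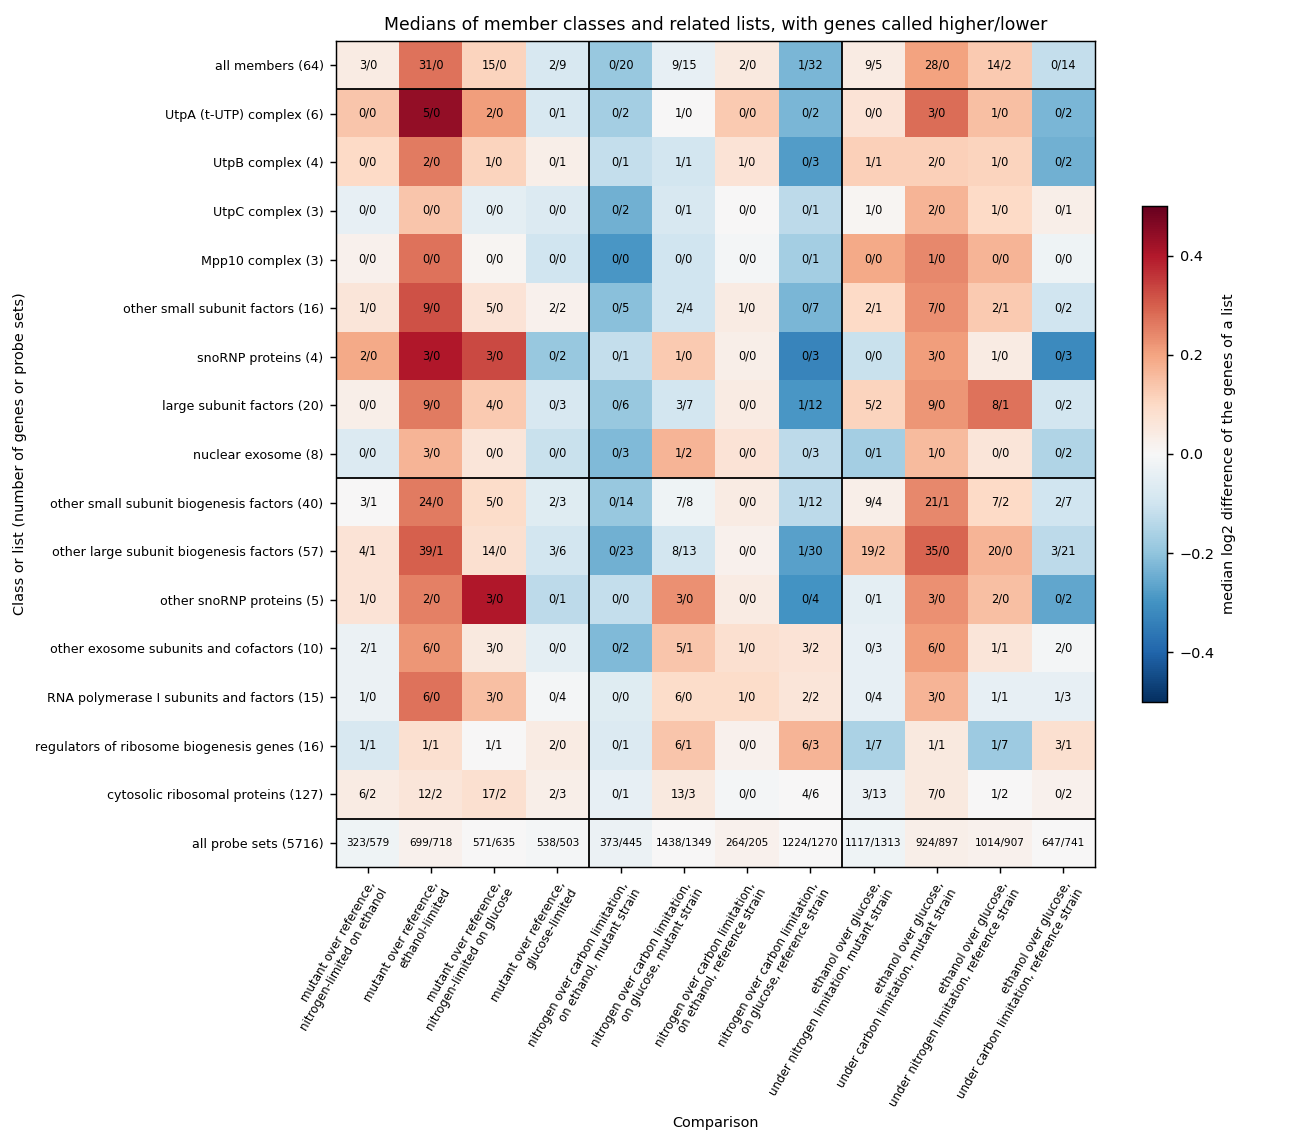
Median log2 difference (colour) of the 8 classes of factors, of 7 related lists and of all probe sets (rows, with the number of genes) in 12 comparisons (columns), with the number of genes called higher and lower in each cell. The row of all 64 factors holds 31 higher and 0 lower calls for the mutant over the reference strain under ethanol limitation, and the row of ribosomal protein genes 12 and 2.

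Genes of 16 regulators were listed as well, and their own transcripts did not follow a single pattern. SFP1, an activator of these genes, differed between the strains by 0.07 ± 0.06 under ethanol limitation (adjusted p = 0.435) and by -0.01 ± 0.06 under nitrogen limitation on glucose (adjusted p = 0.886). It was higher under nitrogen than glucose limitation in the reference strain (0.20 ± 0.06, adjusted p = 0.0213). Under nitrogen limitation SFP1 was lower on ethanol than on glucose, by -0.27 ± 0.06 in the mutant (adjusted p = 0.00417) and by -0.19 ± 0.06 in the reference strain (adjusted p = 0.0318). FHL1, which acts at ribosomal protein genes, was higher in the mutant under ethanol limitation (0.31 ± 0.07, adjusted p = 0.00987) and in both nitrogen-limited conditions (0.25 on glucose and 0.26 on ethanol). CRF1, a corepressor of ribosomal protein genes, had the largest difference of the 16, for nitrogen over glucose limitation in the mutant (-2.71 ± 0.10, adjusted p = 4.78e-09). Between the strains, the mutant was lower under ethanol limitation (-1.06 ± 0.10, adjusted p = 0.000101). It was also lower under nitrogen limitation, on ethanol (-1.22 ± 0.10, adjusted p = 2.1e-05) and on glucose (-0.66 ± 0.10, adjusted p = 0.00107). Under glucose limitation CRF1 was higher in the mutant (1.22 ± 0.10, adjusted p = 4.39e-05). DOT6, a repressor of ribosome biogenesis genes, was higher under nitrogen than glucose limitation, by 0.64 ± 0.07 in the mutant (adjusted p = 4.37e-05) and by 0.63 ± 0.07 in the reference strain (adjusted p = 5.93e-05). TOR1 and SCH9 were higher there as well, by 0.20 ± 0.06 and 0.58 ± 0.05 in the mutant (adjusted p = 0.0161 and 6.97e-06). In the reference strain they rose by 0.72 ± 0.06 and 0.47 ± 0.05 (adjusted p = 4.63e-06 and 4.29e-05). TOD6 was called in neither strain (-0.13 ± 0.15 and -0.18 ± 0.15, adjusted p = 0.532 and 0.38). STB3, another repressor, was uncertain, since the SE of its differences was 0.62.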

How the data were processed

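Total RNA was measured on 16 Affymetrix expression arrays. The deposited table holds the authors' linear intensity of each probe set on each array. GCRMA is named in the submitters' processing notes. The paper's methods correct the background by GCRMA, then apply quantile normalization and a median polish, in its own work from raw files, and whether the deposited table was made that way, or how it became linear, is not stated in the sources used here. A GCRMA value is a summary of several probes, and dim probe sets are the least certain.

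Of 5716 probe sets, 5498 carry 1 symbol in the platform table and 218 none. Intensities were taken to log2 with no floor or filter; the lowest value was 1, in 5 cells of the table. limma 3.58.1 in R 4.3.3 fitted the 8 group means (8 residual and 2.01 prior degrees of freedom) and tested 12 pairs of groups and 4 interactions, with Benjamini-Hochberg adjustment over all probe sets. The fit was also run on simulated data with independent noise and 1 SD per gene for all groups. Those data lack the shared deviations of same-numbered reference arrays, so the run does not cover them. The members and lists were chosen with earlier results of these data known. Array values were given for the largest called rise and fall of each pair, the 8 widest ranges, the 5 factors least like the median profile and the brightest and dimmest factor, with examples by class added after their values were seen. Alternatives were quantile normalization, median centring, brighter probe sets, an intensity trend, the mean of probe sets, the replicate number as a block and leaving out each array. Promoter sequence was not used here.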

Additional observations from a re-analysis of the deposited data

Results flagged for a closer look

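Differences between nitrogen and carbon limitation that themselves differed between carbon sources or strains, by limma's test of the interaction (Benjamini-Hochberg adjusted), drew attention in 12 cases, the 3 largest called in each of the 4 interactions. All of them build on groups of 2 arrays.

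Between ethanol and glucose in the mutant, the contrast of limitations was lower on ethanol for UTP30 (-0.71, adjusted p = 8.39e-05), UTP23 (-0.64, adjusted p = 0.000562) and NOP16 (-0.59, adjusted p = 0.000225). In the reference strain it was higher on ethanol for RRP36 (0.77, adjusted p = 0.00107), NOP56 (0.54, adjusted p = 0.00277) and UTP5 (0.45, adjusted p = 0.0035).

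Between the strains on glucose, the contrast was higher in the mutant for UTP9 (0.62, adjusted p = 0.0261), NOP58 (0.57, adjusted p = 0.000319) and RRP3 (0.52, adjusted p = 0.00651). On ethanol it was lower in the mutant for RRP4 (-0.68, adjusted p = 0.0496), UTP23 (-0.44, adjusted p = 0.026) and RIX1 (-0.43, adjusted p = 0.0152).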

How the results depend on the processing

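Among the 17 differences of named factors, 138 of 174 alternative values kept sign and side of the threshold, 36 kept the sign but were past the threshold no longer, and 0 changed sign. The intensity trend, the brighter probe sets and the replicate blocks leave a log2 difference as it is, so those values could not change sign. The named differences were also the largest called ones of their pairs. Counts of called factors moved more. A fit that leaves out an array keeps 1 array in its group, so lost calls can reflect lower power. Leaving out each array in turn gave ranges, with the count over all arrays in brackets, of 26 to 35 (33) for reference cells on glucose, nitrogen over carbon limitation, where no array moved it by over 1.5 times, and these for the mutant over the reference strain: 20 to 25 (31) under ethanol limitation, 4 to 14 (15) under nitrogen limitation on glucose, 1 to 2 (3) on ethanol, and 1 to 5 (11) under glucose limitation. For nitrogen over carbon limitation the ranges were 14 to 19 (24) in the mutant on glucose, 6 to 17 (20) in the mutant on ethanol and 0 to 1 (2) in the reference strain on ethanol. For ethanol over glucose they were 13 to 18 (28) under carbon and 6 to 10 (14) under nitrogen limitation in the mutant. The interactions gave 9 to 13 (17) for limitation by carbon source in the mutant, 9 to 17 (17) for strain by limitation on glucose and 1 to 8 (11) on ethanol.

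Quantile normalization gave 11 calls for the mutant over the reference strain under nitrogen limitation on ethanol, 10 for ethanol over glucose under nitrogen limitation in the reference strain, 1 for nitrogen over carbon limitation on ethanol in the reference strain and 6 for strain by limitation on ethanol. Median centring gave 9, 1 and 6 for the first, the third and the last of these, and an intensity trend 1 for the third. Calls over all probe sets in these fits are not given here.

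With the brighter 2858 probe sets alone, 24 of the 64 factors were tested, so counts must be lower. Mutant over reference strain gave 14 under ethanol limitation, 6 under nitrogen limitation on glucose and 7 under glucose limitation. Nitrogen over carbon limitation gave 4 on glucose and 7 on ethanol in the mutant, and 12 and 1 in the reference strain. Ethanol over glucose gave 12 under carbon and 4 under nitrogen limitation in the mutant, and 7 and 5 in the reference strain. The interactions gave 6 and 8 for limitation by carbon source in the mutant and the reference strain, and 10 and 6 for strain by limitation on glucose and on ethanol.

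With the replicate block of the title numbers, no count moved by over 1.5 times, and the counts were 29, 15, 4 and 9 for the mutant over the reference strain under ethanol limitation, nitrogen limitation on glucose, nitrogen limitation on ethanol and glucose limitation. The titles gave r of -0.68 to 0.66 between the deviations of same-numbered reference arrays, with values below 0 only where the glucose-limited group took part, whose 2 arrays the descriptions number the other way. With the description numbers r was 0.35 to 0.68 in the reference strain, and 0.02 to 0.29 between mutant groups. A replicate block with those numbers, chosen after seeing the data, gave 8 calls for the mutant over the reference strain under nitrogen limitation on ethanol. The same replicate block in the reference strain only, also chosen after seeing the data, gave 15 there, 47 under ethanol limitation, 25 under nitrogen limitation on glucose and 21 under glucose limitation. It gave 31 in the mutant and 5 in the reference strain for nitrogen over carbon limitation on ethanol. For ethanol over glucose it gave 22 under carbon limitation in the reference strain, and 28 in the mutant and 30 in the reference strain under nitrogen limitation. The interactions gave 29 and 37 for limitation by carbon source in the mutant and the reference strain, and 26 and 23 for strain by limitation on glucose and on ethanol. The blocks leave each difference as it is, so these counts moved through SE and p-value alone. Why same-numbered reference arrays deviated together was not tested.

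The median difference of the 64 factors moved by more than the SD of the array medians (0.041) in 5 of the 16 comparisons with median centring and in 2 with quantile normalization. Nitrogen over carbon limitation on ethanol in the mutant had a median of -0.14 with centring and -0.15 with quantile normalization (-0.19 without), and strain by limitation on ethanol -0.18 with either (-0.25 without). Centring also gave 0.16 for carbon-limited mutant cells on ethanol over glucose (0.20 without), 0.09 for the mutant over the reference strain under nitrogen limitation on ethanol (0.04 without) and -0.11 for limitation by carbon source in the mutant (-0.17 without).

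The arrays limit what can be read. With 2 arrays a group, the median SE of a factor's difference between groups was 0.0773 on the log2 scale.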
